A study of Homo sapiens with 4 samples.

Results

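The insulin-like growth factor (IGF) system was examined as 10 genes of the 61806 in the authors' table, taken by gene symbol: the ligands IGF1 and IGF2, the receptors IGF1R and IGF2R, and the binding proteins IGFBP2, IGFBP3, IGFBP4, IGFBP5, IGFBP6 and IGFBP7. RNA came from JJ012, a human chondrosarcoma line, and 143B, a human osteosarcoma line, both kept in suspension. Each line had 1 untreated control library and 1 library from cells given 1 mM melatonin for 72 h. With 1 library per group, no difference within a line could be set against the spread between cultures, and p-values are given for 1 fit over both lines alone.

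IGF1 and IGF2 are secreted growth factors that activate the tyrosine kinase IGF1R and, through it, the PI3K-Akt and Ras-ERK pathways. IGF2R, also known as the cation-independent mannose 6-phosphate receptor, carries IGF2 to the lysosome for breakdown and delivers lysosomal enzymes. The binding proteins hold the ligands outside the cell and set how much reaches IGF1R, and proteases release the ligands from them. In cartilage and bone, IGFs stimulate growth and matrix formation by chondrocytes and osteoblasts.

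Levels are in FPKM, the counts of a gene scaled by its exonic length and by the total of its library, which allow genes to be set beside each other. Changes are log2 fold changes after adding 1 to each FPKM value, and were computed where either library compared reached 1 FPKM. A gene is said to have risen or fallen where this reached 0.58 in size, the fold threshold of the study. For single genes, the log2 ratio of CPM, counts scaled by library total alone, is given with its exact (Clopper-Pearson) 95% interval. The intervals treat reads as independent, and reflect counting error and nothing more. PCR copies are not independent molecules, so the intervals may be too narrow even for the counting of molecules.

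The libraries held between 15889564 and 19218343 counts, which put a floor of 3 counts between 0.156 and 0.189 CPM. The chondrocyte markers went against a differentiated cartilage identity in both lines. SOX9, the transcription factor of the cartilage lineage, was the 1 marker of 10 at 1 FPKM or more in each library, COL2A1 had 0 counts in both JJ012 libraries, and ACAN had at most 4 counts there. Of 10 osteoblast markers, 2 reached 1 FPKM in each 143B library, among them RUNX2 at 4.28 and 2.75 FPKM, while COL1A2, IBSP and DMP1 had at most 1 count in either. Their summed level was 6.99 and 5.11 FPKM in 143B and 108.87 and 69.36 FPKM in JJ012. SPP1, the matrix protein osteopontin, made up 79.39 and 64.50 FPKM of the JJ012 sums. In the JJ012 control, 5 of the 10 markers reached 1 FPKM, and 3 with melatonin. COL1A1, a chain of type I collagen, COL1A2 and PHEX had 10.92, 12.48 and 1.65 FPKM in untreated JJ012. In untreated 143B they had 0.49, 0.00 and 0.02 FPKM. RUNX2 and BGLAP were lower in untreated JJ012 (3.02 and 0.81 FPKM) than in untreated 143B (4.28 and 1.44 FPKM). For BGLAP this rested on 15 against 22 counts, too few to read a direction. In JJ012, COL1A1 went from 10.92 to 0.77 FPKM with melatonin. Markers of blood, epithelium and endothelium summed to between 0.86 and 3.82 FPKM. The share of counts from mitochondrial genes went from 6.78% to 4.35% in JJ012 and from 1.63% to 2.46% in 143B. The part of these shifts in the members' changes was not tested. In JJ012 the log2 fold change moved with exonic length (Spearman correlation of 0.24 across the 15794 genes tested, which are not independent replicates), so the median change of genes of similar length is given beside the members where it matters.

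The question of which IGF components each line expressed was addressed first, from the untreated libraries. JJ012 and 143B differed in nearly the whole system. Untreated 143B held high levels of IGFBP3, IGF2, IGFBP4 and IGF1R, whereas untreated JJ012 held mainly IGFBP6, IGFBP7 and IGF2R. All 9 members that passed the filter of 1 FPKM differed by at least 0.58 between the untreated lines, 3 higher and 6 lower in JJ012. Of all 16929 genes tested in that comparison, 68.7% did so, 41.3% higher and 27.4% lower, with a median of 0.29 on the log2 scale. The tenth member, IGF1, had 2 counts in each JJ012 library and 0 in both 143B libraries, which allows up to 0.189 CPM.

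**Figure D1:**
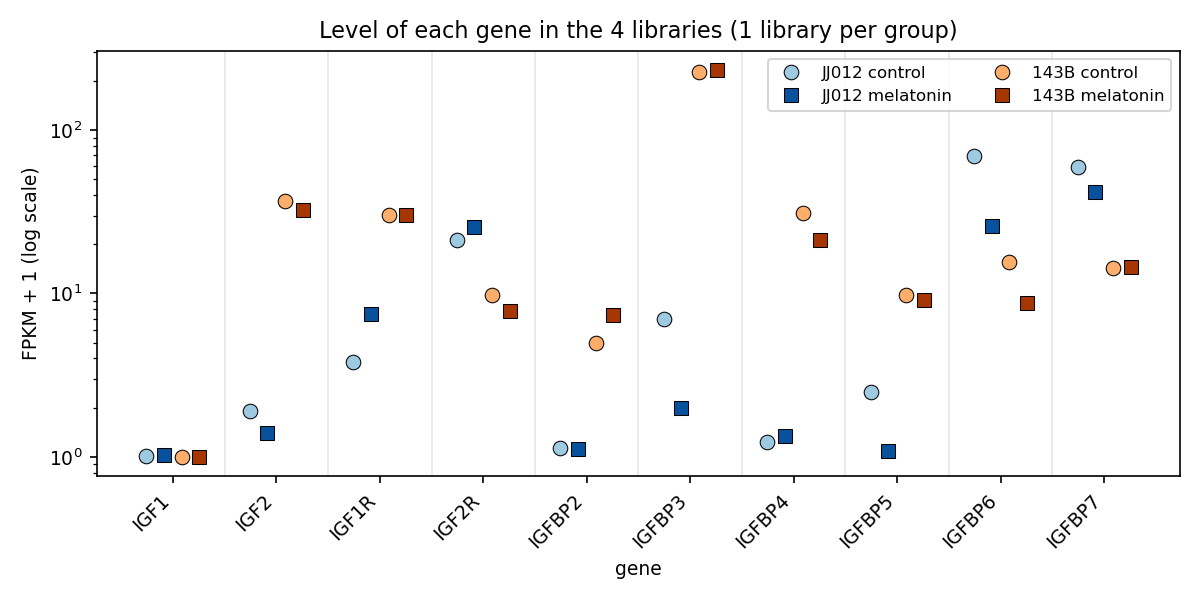
Level of each gene in the 4 libraries, as FPKM + 1 on a log axis, with circles for controls and squares for melatonin (1 library per group, so no error bars). IGFBP3 stood at 224.19 and 231.85 FPKM in 143B and at 6.02 and 1.00 FPKM in JJ012, and IGF1 was near 0 in every library.

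The ligand IGF2 (ENSG00000167244, chromosome 11, minus strand, from 2129112 to 2158391 in the authors' hg38 positions) was found mainly in 143B. Its level was 0.92 FPKM in the JJ012 control, 0.40 FPKM in JJ012 with melatonin, 36.02 FPKM in the 143B control and 31.31 FPKM in 143B with melatonin. The JJ012 libraries rested on 126 and 46 counts and the 143B libraries on 4090 and 3841. By CPM, IGF2 was 39.3-fold lower in untreated JJ012 than in untreated 143B, with an interval of 32.9 to 47.3. With melatonin the log2 ratio of CPM was -1.20 in JJ012 (interval, -1.72 to -0.70), where IGF2 lay under the filter of 1 FPKM, and -0.20 in 143B (-0.27 to -0.14).
The locus limits how closely the IGF2 value can be read. On the same strand IGF2 overlaps INS-IGF2 and a further gene entry, ENSG00000284779, both of which had 0 counts in every library, as well as ENSG00000240801, also at 0, and MIR483, with at most 5 counts. Reads over exons shared by several genes can be dropped in counting, and their part in the IGF2 level was not tested. IGF2-AS lies within IGF2 on the other strand and had 0 counts in both JJ012 libraries but 472 and 663 counts in the 143B control and melatonin libraries. The strand setting of the counting is not given in the sources used here, so IGF2 and IGF2-AS cannot be told apart where they overlap. H19, the noncoding RNA that is imprinted oppositely to IGF2 and lies 127641 bases away, showed the other order of the lines. H19 had 135 counts in the JJ012 control, 6 counts in JJ012 with melatonin, and 1 and 2 counts in 143B.

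The receptors were arranged oppositely in the 2 lines. IGF1R (ENSG00000140443, chromosome 15, plus strand, from 98648539 to 98964530) had 2.83 FPKM in the JJ012 control and 6.46 FPKM with melatonin, against 29.06 and 29.24 FPKM in 143B. IGF2R (ENSG00000197081, chromosome 6, plus strand, from 159969082 to 160113507) had 20.27 and 24.36 FPKM in JJ012 and 8.82 and 6.81 FPKM in 143B. The level of IGF2R over that of IGF1R was therefore 7.16 in the JJ012 control and 3.77 after melatonin, but 0.30 and 0.23 in 143B. By CPM, untreated JJ012 had 10.3-fold less IGF1R than untreated 143B (interval, 9.53 to 11.1) and 2.30-fold more IGF2R. These sizes depend on the processing. Over the alternatives tried, the log2 fold change ran from -3.62 to -2.72 for IGF1R and from 0.79 to 1.47 for IGF2R.

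Among the binding proteins, IGFBP3 took most of the summed level in 143B, and IGFBP6 and IGFBP7 took most of it in JJ012. The 6 genes summed to 295.14 FPKM in the 143B control, of which IGFBP3 made up 76.0%, and to 134.54 FPKM in the JJ012 control, of which IGFBP6 made up 50.9% and IGFBP7 43.3%. IGFBP3 is the main carrier of IGFs in blood, IGFBP6 prefers IGF2 over IGF1, and IGFBP7 is a more distant relative that binds IGFs weakly. IGFBP4, an inhibitor of IGF action that the protease PAPPA cleaves, was 128-fold lower in untreated JJ012 than in untreated 143B (interval, 69.4 to 268.1), from 10 against 1060 counts. IGFBP2 was 28.0-fold lower, from 13 against 301 counts, and IGFBP5, a binding protein abundant in bone, 5.92-fold lower. The log2 fold change of IGFBP6 between the untreated lines was 2.16, and from 1.29 to 2.23 over the alternatives tried. That of IGFBP7 was 2.04, and from 1.12 to 2.11. For both, the lowest value was the one less the median of genes of similar length.

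**Figure D2:**
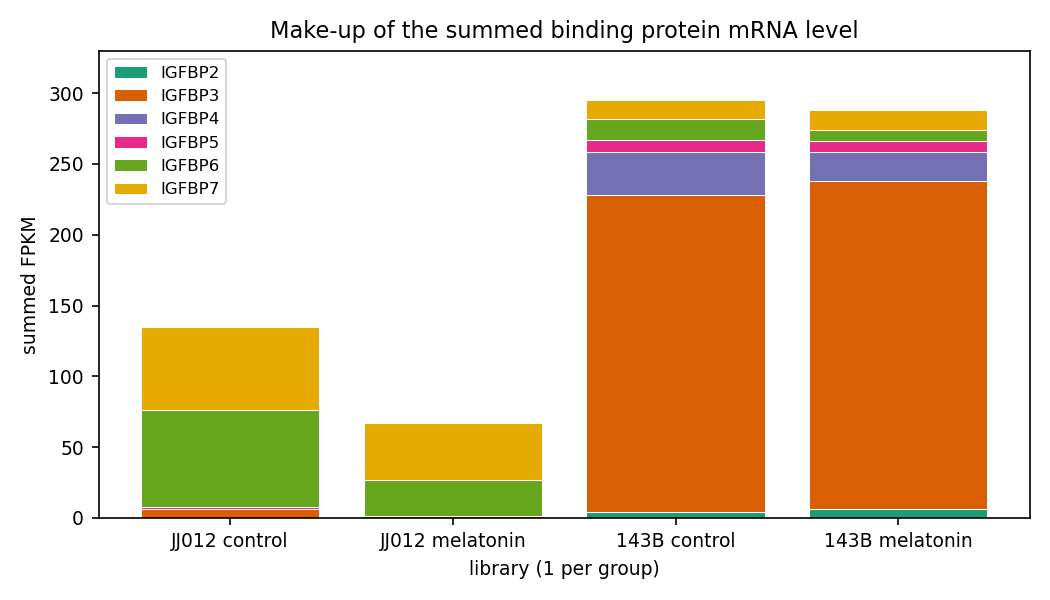
Summed FPKM of the 6 binding protein genes in each library, stacked by gene (1 library per group). The JJ012 bars of 134.54 and 67.34 FPKM consist mostly of IGFBP6 and IGFBP7, and the 143B bars of 295.14 and 287.82 FPKM mostly of IGFBP3.

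Within single libraries, neighbours in the order of levels were compared by their counting error (exact Poisson intervals). These intervals do not cover the choice of exonic length, on which the order between genes depends. For IGFBP2 that length was 4742 bases, against 1439 in 1 GENCODE 29 transcript, and for IGFBP4 2205 against 2200. The order with transcript lengths was not tested. In the 143B control the intervals overlapped for IGFBP4 and IGF1R (30.25 and 29.06 FPKM), for IGFBP6 and IGFBP7 (14.49 and 13.40 FPKM) and for IGF2R and IGFBP5, both at 8.82 FPKM. In the JJ012 control they overlapped for IGFBP4 and IGFBP2 alone. In JJ012 with melatonin they overlapped for 5 of 9 neighbouring pairs, IGFBP6 with IGF2R (24.94 and 24.36 FPKM) and the 4 pairs formed by IGF2, IGFBP4, IGFBP2, IGFBP5 and IGF1, in that order. In 143B with melatonin the pairs were IGFBP5 with IGFBP6, IGFBP6 with IGF2R, and IGF2R with IGFBP2.

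IGFBP2, IGFBP3, IGFBP4 and IGFBP5 share a coding stretch that is printed here because it bears on whether their reads could be mixed. The stretch was searched in frame in 1 GENCODE 29 transcript per gene as 8 codons, a glycine and a cysteine codon, the same pair again, a cysteine codon, any 2 codons and a last cysteine codon. Cysteine codons are in capitals, and each match lies in the first exon.
IGFBP2 (chr2:216633770-216633793, plus strand): ggcTGCggcTGCTGCtcggtgTGC
IGFBP3 (chr7:45920922-45920945, minus strand): ggcTGCggcTGCTGCctgacgTGC
IGFBP4 (chr17:40443889-40443912, plus strand): ggcTGCggcTGTTGCgccactTGC
IGFBP5 (chr2:216694599-216694622, minus strand): ggcTGCggcTGCTGCatgaccTGC
Transcripts of IGFBP6 and IGFBP7 held no such match. The stretches of IGFBP3 and IGFBP5 differed at 2 of 24 bases, the closest pair, while those of IGFBP2 and IGFBP4 differed at 6. Over whole transcripts, the longest run shared by any pair of the 10 members was 40 bases, between IGF1 and IGF2R, and the next was 22 bases, between IGFBP2 and IGFBP5, so that runs of identical sequence were short.

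In JJ012, melatonin went with lower IGFBP3, IGFBP5 and IGFBP6 and with higher IGF1R. These 4 of the 6 members that passed the filter reached the threshold, 1 higher and 3 lower. Among all 15794 genes tested in JJ012, 38.2% did so, 19.6% higher and 18.6% lower. The median log2 fold change was -0.85 over the 6 members and 0.01 over all genes. The 4 members left out were IGF1, IGF2, IGFBP2 and IGFBP4, none of which reached 1 FPKM in either JJ012 library.

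**Figure D3:**
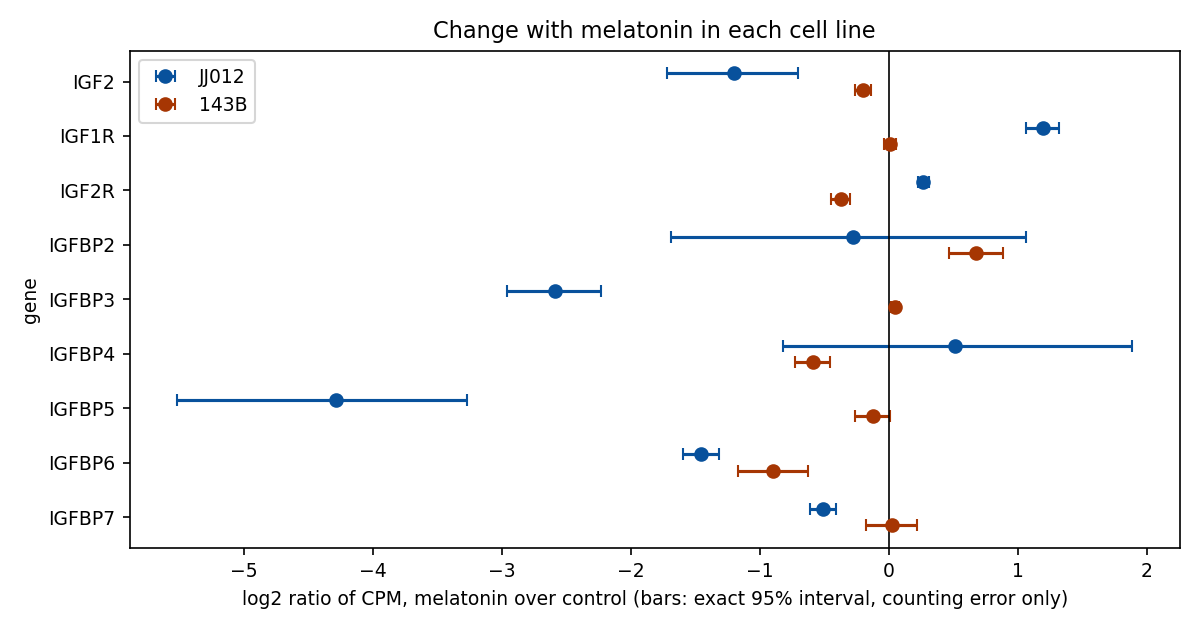
Log2 ratio of CPM, melatonin over control, for 9 genes in JJ012 (blue) and 143B (brown), with bars for the exact 95% interval from counting error (1 library per group). IGFBP6 lay below 0 in both lines, whereas IGFBP3 lay at -2.59 in JJ012 and 0.05 in 143B.

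IGFBP3 (ENSG00000146674, chromosome 7, minus strand, from 45912245 to 45921874) went from 6.02 to 1.00 FPKM in JJ012, or from 529 to 74 counts. Its log2 fold change of -1.81 was the 118th lowest of the genes tested. Its log2 ratio of CPM was -2.59 (interval, -2.96 to -2.23), or between 4.70-fold and 7.77-fold lower with melatonin. In 143B the same gene had 16276 and 18183 counts, a log2 ratio of CPM of 0.05 (interval, 0.02 to 0.08), which with each library rescaled to TPM was a log2 fold change of -0.01. IGFBP1, a binding protein whose expression insulin represses and which lies 18584 bases from IGFBP3 on the other strand, had 185 counts in the JJ012 control and 192 with melatonin, and its log2 fold change was 0.26.

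IGFBP5 (ENSG00000115461, chromosome 2, minus strand, from 216672105 to 216695549) went from 1.49 to 0.08 FPKM in JJ012, from 185 to 8 counts. The log2 fold change was -1.21 with the pseudocount, and by CPM the gene was 19.4-fold lower (interval, 9.66 to 45.7). In 143B it stood at 8.82 and 8.08 FPKM, and its log2 ratio of CPM had an interval from -0.26 to 0.01. Its neighbour IGFBP2, whose end lies 7668 bases away on the other strand, had 13 and 9 counts in JJ012, too few to read a direction.

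IGFBP6 (ENSG00000167779, chromosome 12, plus strand, from 53097436 to 53102345) was the single member that fell in both lines. Of all genes tested, 18.6% fell in JJ012 and 6.65% in 143B, and the share that fell in both was not computed. The level of IGFBP6 was 68.42 FPKM in the JJ012 control and 24.94 FPKM with melatonin, against 14.49 and 7.79 FPKM in 143B. Counts were 1770 and 542 in JJ012 and 310 and 180 in 143B. The log2 ratio of CPM was -1.46 in JJ012 (interval, -1.60 to -1.32) and -0.90 in 143B (-1.17 to -0.63). Its exonic length of 1346 bases was the shortest among the members, and the median among JJ012 genes of similar length was -0.33, against a log2 fold change of -1.42 for IGFBP6. Less that median, the value was -1.09.

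IGFBP7 (ENSG00000163453, chromosome 4, minus strand, from 57030773 to 57110385) had 58.23 and 40.86 FPKM in JJ012, a log2 fold change of -0.50 that stayed under the threshold, with genes of similar length at -0.33. In 143B it had 13.40 and 13.61 FPKM. It overlaps POLR2B on the other strand over 386 bases. The summed level of the 6 binding proteins decreased by 67.2 FPKM in JJ012, to 67.34 FPKM, and the differences of IGFBP6 and IGFBP7 within it were -43.5 and -17.4 FPKM. The log2 ratio of the sums was -0.998 in FPKM and -0.72 in TPM. In 143B it was -0.04, and -0.09 in TPM. With melatonin, IGFBP7 made up 60.7% of the JJ012 sum and IGFBP6 37.0%. The sums leave out IGFBP1, which is not a member. In control and melatonin libraries it had 5.86 and 7.24 FPKM in JJ012 and 1.72 and 1.28 FPKM in 143B.

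IGF1R rose in JJ012 from 758 to 1455 counts, 2.29-fold by CPM (interval, 2.09 to 2.50), a log2 fold change of 0.96. Genes of similar exonic length had a median of 0.29, and the value less that median was 0.67. Its 143B libraries had 6438 and 6998 counts, with a log2 ratio of CPM of 0.01 (interval, -0.04 to 0.06). The log2 fold change of IGF2R was 0.25 in JJ012, which became -0.13 less the median of genes of similar length, and of -0.33 in 143B.

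In 143B, IGFBP6 was the 1 member of the 9 tested that reached the threshold, at -0.82. Of all 14135 genes tested there, 12.7% reached it, 6.09% higher and 6.65% lower. The median log2 fold change was -0.11 over the members and 0.03 over all genes. A pair of binding proteins lay just inside the threshold on opposite sides. IGFBP2 (ENSG00000115457, chromosome 2, plus strand) had 3.99 and 6.38 FPKM, a log2 fold change of 0.56, and IGFBP4 (ENSG00000141753, chromosome 17, plus strand) had 30.25 and 20.11 FPKM, a log2 fold change of -0.57. Their log2 ratios of CPM were 0.67 (interval, 0.47 to 0.88) and -0.59 (-0.73 to -0.45), and both directions held under each scaling tried.

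The difference between the lines in the change with melatonin could be computed for 9 members, from 4 counts each. Its 95% interval covers counting error alone, and the same difference was not computed for all genes. The difference of the log2 ratios of CPM, JJ012 less 143B, was -4.15 for IGFBP5 (interval, -5.18 to -3.12), -2.63 for IGFBP3 (-2.99 to -2.28), -0.56 for IGFBP6 (-0.86 to -0.26) and -0.53 for IGFBP7 (-0.75 to -0.32). It was 1.18 for IGF1R (1.05 to 1.32) and 0.64 for IGF2R (0.55 to 0.73). For IGF2 its interval ran from -1.49 to -0.51. For IGFBP2 and IGFBP4, the JJ012 libraries held at most 13 counts and the intervals included 0.

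Melatonin was also tested over both lines together, with line and melatonin as terms of edgeR's quasi-likelihood fit, which took the change to be the same in both lines and left 1 residual degree of freedom. The spread came from how the lines differed in their change and was pooled over all genes. Of 19301 genes, 68 had a Benjamini-Hochberg adjusted p below 0.05 (0.352%), among them 1 of the 9 members tested. That member was IGFBP5, with a log2 fold change of -1.71 (edgeR adjusted p = 0.047). Its log2 ratio of CPM was -4.28 in JJ012 and -0.13 in 143B, where the interval for counting error (-0.26 to 0.01) included 0. The spread was pooled over all genes, so this gene's own difference between the lines did not enter its p-value separately. With no filter on low counts the edgeR adjusted p was 0.14. IGFBP6, lower in 2 of 2 lines, had a log2 fold change of -1.19 and did not pass (edgeR adjusted p = 0.24), nor did IGFBP3 (edgeR adjusted p = 0.52).

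Sequence before the start sites is shown for both receptors and for the 3 binding proteins with a TATA-type motif there, a choice made after the sequences had been read. RefSeq promoter sequences (GRCh38.p14, windows around each start) were matched to 8 of the 10 members, with 11 starts. Bases 90 to 11 before the start are printed, with capitals for TATA-type motifs and for an E-box. The TATA-type letters were TATAAA with the variants TATATA and also TATTTAA, and those of the E-box were CACGTG. These motifs, searched on both strands and not overlapping one another here, were chosen after the sequences had been read.
IGFBP3 (chr7:45921283-45921362, minus strand): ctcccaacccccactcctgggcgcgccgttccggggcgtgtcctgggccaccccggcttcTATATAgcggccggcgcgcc
IGFBP4 (chr17:40443360-40443439, plus strand): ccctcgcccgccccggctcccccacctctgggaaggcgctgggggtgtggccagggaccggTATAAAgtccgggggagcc
IGFBP5 (chr2:216695560-216695639, minus strand): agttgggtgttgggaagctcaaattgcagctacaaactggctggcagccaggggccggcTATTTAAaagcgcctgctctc
IGF1R (chr15:98648449-98648528, plus strand): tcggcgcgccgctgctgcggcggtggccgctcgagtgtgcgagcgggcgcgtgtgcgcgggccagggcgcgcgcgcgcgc
IGF2R (chr6:159968992-159969071, plus strand): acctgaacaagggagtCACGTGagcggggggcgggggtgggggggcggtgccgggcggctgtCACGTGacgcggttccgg
IGFBP3, IGFBP4 and IGFBP5 each held 1 of the TATA-type motifs. None was found for IGFBP6, for the 3 starts of IGFBP2, for IGF1 or for the receptors. Of all 35116 promoters of the table, 11.5% held TATAAA, 3.99% TATATA and 4.52% TATTTAA. The share of promoters with any of these motifs was not computed, and a link of motif and change was not tested. IGF2R held CACGTG 3 times in its full window, a motif present in 7.26% of promoters. GGGCGG, present in 44.95% of promoters, was found in IGFBP2, IGFBP3, IGFBP4, IGFBP6, IGF1R and IGF2R. A match of letters is no evidence that a factor binds there.

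Genes around the members were described in 6 lists of 70 genes in all. In JJ012, 10 of the 52 tested rose and 10 fell (38.5% together, against 38.2% of all genes). With TPM, 24 rose and 11 fell, and the median of all genes tested moved from 0.01 to 0.21. The shares of all genes with TPM were not computed. In 143B, 7 of 54 rose and 1 fell (14.8%, against 12.7%). GADD45A, a stress-induced growth arrest gene, was the 1 gene of the lists past the threshold in both lines, with 61.36 and 136.28 FPKM in JJ012 and 27.10 and 58.71 FPKM in 143B. The share of all genes past the threshold in both lines was not computed.

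**Figure D4:**
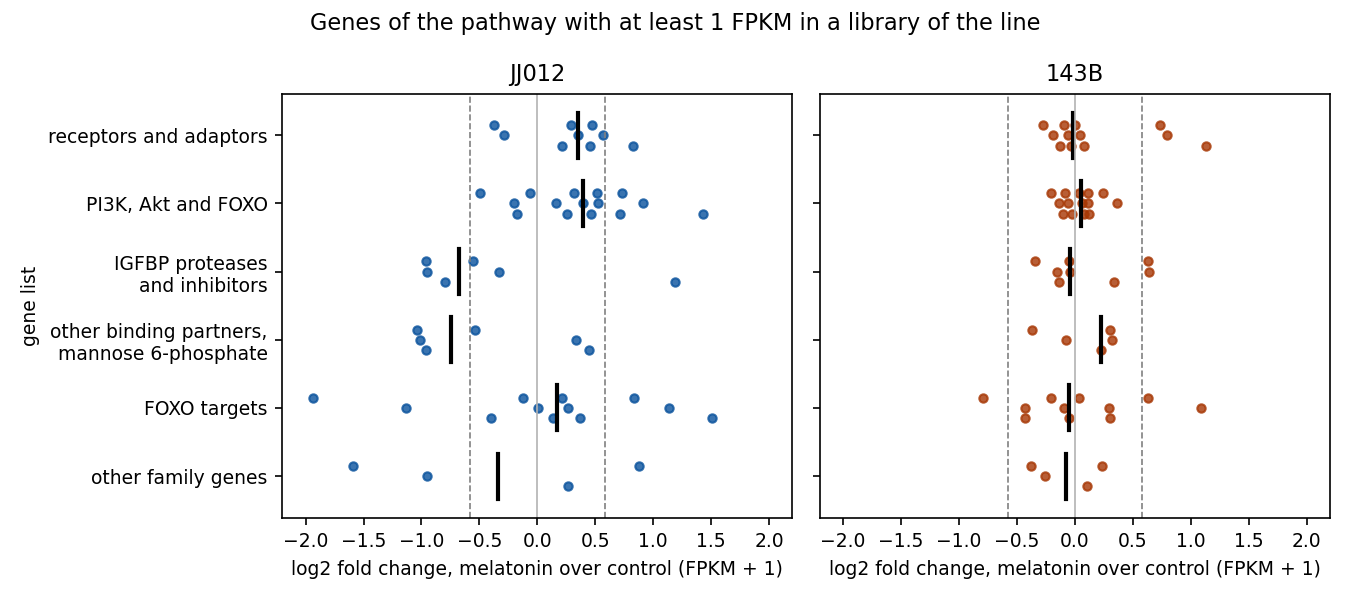
Log2 fold change, melatonin over control, of the tested genes of 6 lists in JJ012 (left) and 143B (right), with bars at the list medians and dashed lines at 0.58 in either direction (1 library per group). In JJ012 the medians were 0.39 for PI3K, Akt and FOXO genes and -0.75 for other binding partners, and in 143B the list medians lay between -0.07 and 0.22.

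Among receptors and adaptors, 1 of 9 tested genes rose in JJ012 and 3 of 12 in 143B, and none fell. Of all genes tested, 19.6% rose and 18.6% fell in JJ012, and 6.09% rose and 6.65% fell in 143B. SOS1, the exchange factor that links receptors to Ras, rose in JJ012 from 2.96 to 6.03 FPKM, and its value less the median of genes of similar length was 0.44. In 143B, the orphan receptor INSRR rose from 2.13 to 5.86 FPKM and the adaptor GRB14, an inhibitor of insulin receptor signalling, from 3.45 to 6.40 FPKM. IRS1, the docking protein of IGF1R, named after its values were seen, rose there from 1.68 to 3.66 FPKM. PTPN1, a phosphatase acting on these receptors, had 29.44 and 44.21 FPKM in JJ012, just under the threshold at 0.57, and 0.62 less the median of genes of similar length.

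Of the PI3K, Akt and FOXO genes, 4 of 15 rose in JJ012 and none fell, with a median of 0.39. Of all genes tested there, 19.6% rose and 18.6% fell, with a median of 0.01. The genes of this list were long, with a median exonic length of 10911 bases against 4068 for all genes tested. Less the median of genes of similar length, their median was 0.13, with 1 higher and 1 lower. For all genes, the shares after this subtraction were not computed. FOXO3, a transcription factor that Akt restrains, rose from 8.22 to 23.85 FPKM, and by 1.18 on the log2 scale less that median. PDPK1, the kinase that activates Akt, rose from 5.35 to 10.93 FPKM, which became 0.57 less that median. The other two, PIK3CA and GSK3B, named after their values were seen, had log2 fold changes of 0.73 and 0.72, and 0.39 and 0.36 less that median. In 143B none of the 14 tested reached the threshold, against 12.7% of all genes tested there. FOXO3 had 24.04 and 20.77 FPKM in 143B and PIK3CD, a catalytic subunit of PI3K, 14.37 and 17.14 FPKM.

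Of the proteases that cleave binding proteins and their inhibitors, 3 of 6 fell and 1 rose in JJ012, where 18.6% of all genes tested fell and 19.6% rose. Less the median of genes of similar length, 4 were lower and 1 higher. The shares of all genes after this subtraction were not computed. HTRA3 fell from 5.20 to 2.18 FPKM, and HTRA1 and CTSD, named after their values were seen, from 82.03 to 41.90 FPKM and from 144.43 to 82.67 FPKM. STC2, an inhibitor of PAPPA, rose from 3.24 to 8.63 FPKM. In 143B, 2 of 8 rose and none fell, where 6.09% of all genes tested rose and 6.65% fell. STC1, the related PAPPA inhibitor, rose by 0.63 on the log2 scale, with 324.14 and 502.03 FPKM, and PAPPA, named after its values were seen, from 1.81 to 3.38 FPKM. STC2 had 135.85 and 106.79 FPKM in 143B.

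Of the other binding partners and mannose 6-phosphate genes, 3 of 6 fell in JJ012, with a median of -0.75, against 18.6% of all genes tested and a median of 0.01. Less the median of genes of similar length, 4 were lower, and the share of all genes after this subtraction was not computed. LRP1, an endocytic receptor that binds IGFBP3, fell from 20.81 to 9.64 FPKM, and TMEM219, a receptor of IGFBP3, from 27.41 to 13.06 FPKM. GNPTG, a subunit of the enzyme that makes the mannose 6-phosphate tag and named after its values were seen, fell from 28.27 to 14.01 FPKM. M6PR, the smaller mannose 6-phosphate receptor, had log2 fold changes of 0.34 in JJ012 and 0.22 in 143B, and TMEM219 had -0.37 in 143B. None of the 5 tested in 143B reached the threshold, against 12.7% of all genes tested there.

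Of 12 FOXO target genes, 3 rose and 2 fell in JJ012, and 2 of 11 rose and 1 fell in 143B, with medians of 0.17 and -0.05. Less the median of genes of similar length, the medians of the FOXO targets were -0.07 in JJ012 and -0.09 in 143B. In the rest of the family, 4 of 13 genes were tested in each line, 1 rose and 2 fell in JJ012, and none reached the threshold in 143B. For both lists the shares of all genes tested were 19.6% higher and 18.6% lower in JJ012. In 143B those shares were 6.09% and 6.65%. KAZALD1, a secreted protein with an IGF binding domain, fell in JJ012 from 9.29 to 4.32 FPKM, and H19, named after its values were seen, had a log2 fold change of -1.59. IGF2BP2, which binds IGF2 mRNA, rose there from 20.61 to 38.69 FPKM and had 45.25 and 53.32 FPKM in 143B. IGF2BP1, of the same family of RNA-binding proteins, had 0.76 and 0.17 FPKM in JJ012 and 22.81 and 17.34 FPKM in 143B.

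The members with the widest range over the 4 libraries were IGFBP3, IGF2 and IGFBP4, at 6.86, 4.73 and 4.66 on the log2 scale of FPKM + 1. Among 9673 other genes with at least 5 FPKM in a library, the centred profile nearest to IGFBP3 was that of PLIN2, at a Euclidean distance of 0.78, followed by PTGS2 and NOG. Nearest to IGF2 was GRB10, an adaptor of the insulin and IGF1 receptors, at a distance of 0.17, followed by PPP2R2C and LTK. Its level was 0.19 and 0.01 FPKM in JJ012 and 25.41 and 20.85 FPKM in 143B. Nearest to IGFBP4 was RORA, at 0.05, followed by SLC17A9 and SLC38A1. With 4 libraries, such distances describe mainly the difference between the lines.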

How the data were processed

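Poly(A)-selected RNA of 4 libraries was sequenced as paired ends. The submitters' processing notes name cutadapt 1.9.1, HISAT2 2.2.1, HTSeq 0.6.1, DESeq2 and hg38, with no settings. The deposited table holds raw counts, whole numbers with no normalization, and the authors' FPKM, which equal the counts scaled by exonic length and library total, rounded. Columns were matched to samples by cell line name, with the suffix T read as melatonin-treated. Exonic length was also deposited.

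Fold changes used FPKM with a pseudocount of 1 and a filter of 1 FPKM. No test was made within a line, which had 1 library per group. An edgeR quasi-likelihood fit over both lines, with TMM factors and its default low-count filter, was added after the data were seen. Alternatives were a pseudocount of 0.1, no filter, a filter of 5 FPKM, TMM factors (edgeR 4.0.16), DESeq2 1.42.0 size factors, TPM, CPM, centring on the median gene, subtraction of a running median over 501 genes ordered by exonic length, and a threshold of 1. List genes were named where past the threshold in both lines, otherwise as the 2 largest changes per line at 5 FPKM or more. Members and lists were chosen with earlier results of these data known. Procedures were tested on simulated data. Sequences came from RefSeq and GENCODE 29. All 10 members overlapped the GENCODE gene of the same identifier, and 6 had the same start and end. Scripts ran in R 4.3.3 and Python 3.11.15 (pandas 2.3.3, scipy 1.17.1, numpy 2.4.6, matplotlib 3.10.9).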

Additional observations from a re-analysis of the deposited data

Results flagged for a closer look

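For 2 members, the log2 ratio of CPM with melatonin lay above 0 in one cell line and below 0 in the other, each with its whole interval for counting error. The share of all genes that meet this rule was not computed. IGF2R had 0.27 in JJ012 and -0.37 in 143B. IGFBP3 had -2.59 in JJ012 and 0.048 in 143B. Both flags depend on the scaling. The log2 fold change of IGF2R in JJ012 was -0.13 less the length trend. That of IGFBP3 in 143B was -0.01 with TPM and -0.01 less the length trend. With 1 library per group, the difference between the lines was not tested against the spread between cultures.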

How the results depend on the processing

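The labels give no replicate numbers, and the lines were paired only in the added fit over both. There, the 68 genes called became 76 with DESeq2 size factors and 69 with no filter on low counts, and the 1 member called, IGFBP5, became 0 without the filter. Leaving out a library leaves that fit no residual degrees of freedom. The counts of members between the untreated lines and the 3 falls in JJ012 stayed within 1.5 times the reported number under the 10 alternatives. The 3 falls became 4 with TPM and with CPM, where IGF2 was added at -0.65 and -0.97. They became 2 with a filter of 5 FPKM, which IGFBP5 did not pass. The 1 rise in JJ012 became 0 with a threshold of 1. In 143B, the 0 rises became 1 with a pseudocount of 0.1, TMM factors, TPM and CPM, and the 1 fall became 2 with a pseudocount of 0.1, DESeq2 size factors, TPM, centring and subtraction of the length trend, and 0 with a threshold of 1. IGFBP2 and IGFBP4 lay close to the threshold in that line. The pathway lists were recomputed with a pseudocount of 0.1, TPM and the length trend, of which TPM moved the 10 rises in JJ012 to 24 and the 1 fall in 143B to 3. It moved the median of all genes in JJ012 from 0.01 to 0.21. For the fold changes, the shares of all genes past the threshold were not computed under any alternative. Of 186 alternative values of single members, 11 had the other sign, all for members under the threshold (IGFBP2 and IGF2R in JJ012, and IGF1R, IGFBP3 and IGFBP7 in 143B). Depth limits IGF1, IGFBP2 and IGFBP4 in JJ012 to at most 13 counts.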
